A study of Mus musculus with 18 samples.

Results

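Absorption of salt and water across the colonic surface was followed through 10 genes of the 54532 in the deposited tables. They were picked by name: the water channels Aqp4 and Aqp8, the apical exchangers Slc26a3 and Slc9a3, the monocarboxylate transporter Slc5a8, the 3 subunits of the epithelial sodium channel (Scnn1a, Scnn1b and Scnn1g) and the carbonic anhydrases Car1 and Car4. Each was found under 1 gene identifier, and each passed the filter on low counts in every test. Poly(A) RNA of C57BL/6 mice was sequenced in 18 libraries. The 8 tumour libraries came from colorectal tumours of the azoxymethane and dextran sulfate sodium (DSS) model, 2 each from Il1f9-/- (KO), Il1f9+/+ (WT), Il1f5-/- (KO) and Il1f5+/+ (WT) mice. The 10 colitis libraries came from mice given 2.5% DSS for 5 days and then water for 2 days, and each holds 0.5 cm of whole distal colon from near the anus. They were 2 each from Il1f9-/- and Il1f9+/+ mice and 3 each from Il1f5-/- and Il1f5+/+ mice. Il1f9 encodes the cytokine IL-36 gamma and Il1f5 the antagonist of the receptor it acts on. Every group had received DSS and the tumour groups azoxymethane as well, so no level of untreated colon stands beside the values. The design text gives as many mice as libraries. The sources do not say whether a tumour library holds 1 tumour or several, nor the age and sex of the mice.

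Surface colonocytes take up sodium and chloride by coupling an apical sodium-hydrogen exchanger (Slc9a3, NHE3) to an apical chloride-bicarbonate exchanger (Slc26a3, DRA), while carbonic anhydrases supply the protons and bicarbonate that both exchangers trade. Slc5a8 (SMCT1) takes up butyrate and other short-chain fatty acids together with sodium, and the epithelial sodium channel, built of alpha, beta and gamma subunits, reabsorbs sodium in the distal colon under aldosterone. Water follows the salt, in part through aquaporins, and loss of human SLC26A3 causes congenital chloride diarrhoea.

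The libraries held 16621611 to 23776174 counts, with 2.01 to 3.56% of counts in mitochondrial genes. Il1f9 was low in the Il1f9 KO libraries, with 9 and 1 counts in colitis and 2 and 0 in tumours, against 232 and 90 in Il1f9 WT colitis and 1652 and 752 in Il1f9 WT tumours. Il1f5 had 36, 43 and 45 counts in colitis libraries labelled Il1f5 KO and 211 and 102 in tumour libraries labelled Il1f5 KO, and 0 counts in each other library. The counts of Il1f5 go against the labels, and the part of the gene deleted in these mice is not stated, so every Il1f5 direction given here is one of the libraries as labelled. Libraries are numbered within groups as in the labels. Tumours of the Il1f9 and the Il1f5 line are in separate deposited tables, and the colitis libraries in a table of their own, so that any difference in handling between tables cannot be told apart from line or tissue.

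Levels are compared between genes in the authors' FPKM, which is counts per length and depth. Car1, a cytosolic carbonic anhydrase (ENSMUSG00000027556, chromosome 3, 14766216 to 14808368), was the most abundant of the 10 genes in both tissues, at 422 ± 314 FPKM in tumours and 4762 ± 1882 FPKM in colitis (mean ± SD, n = 8 and 10). Car1 alone took 0.0182 to 0.130% of all counts of a tumour library and 0.264 to 0.94% of a colitis library. In colitis the order of mean FPKM went on with Car4 (226 ± 46.9), a carbonic anhydrase anchored to the apical membrane, Aqp8 (148 ± 75.5), Slc9a3 (74.1 ± 19.9), Aqp4 (51.6 ± 27.1), Slc26a3 (43.4 ± 11.3), Slc5a8 (31.8 ± 5.51), Scnn1a (13.6 ± 3.41), Scnn1b (3.81 ± 0.887) and Scnn1g (1.03 ± 0.794). Aqp8 was above Slc9a3 in every colitis library. Neighbours from Slc9a3 down to Slc5a8 changed order between colitis libraries, so that this stretch of the order is not resolved. In tumours Slc9a3 came next after Car1, at 46.5 ± 16.0 FPKM. It was followed by Scnn1a (14.7 ± 4.85), Car4 (12.5 ± 5.63), Aqp8 (11.6 ± 6.00), Aqp4 (10.1 ± 8.33), Slc5a8 (4.28 ± 1.93), Slc26a3 (3.39 ± 2.82) and Scnn1b (2.96 ± 1.09). All neighbours from Scnn1a to Scnn1b changed order between tumour libraries, and Scnn1g was last again, at 0.828 ± 0.348 FPKM. The 10 genes together summed to 252 to 1151 FPKM in tumour libraries and 2376 to 8669.9 FPKM in colitis libraries.

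**Figure D1:**
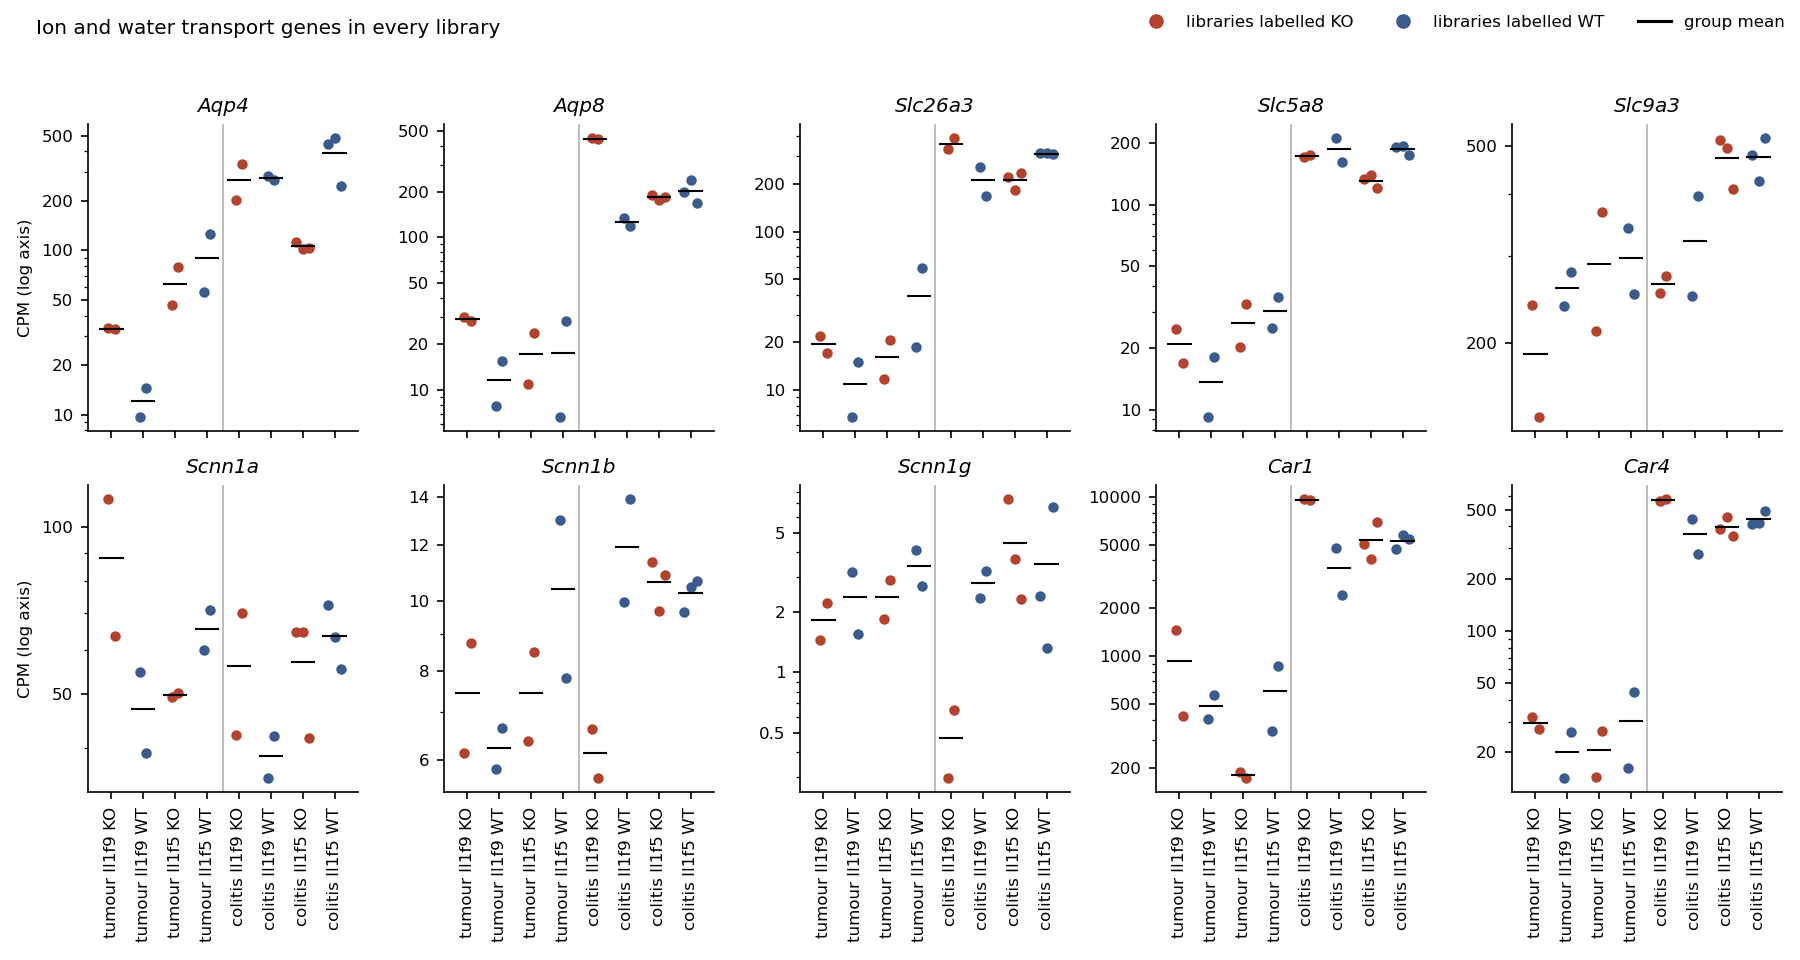
Count levels as CPM (log axis, with its own range in each panel) of the 10 transport genes in each of the 18 libraries, by group, with tumours left of the grey line and colitis right of it; points are libraries and bars are group means. Aqp8, Slc26a3, Slc5a8, Car1 and Car4 were lower in each tumour library than in any colitis library, and Scnn1a, Scnn1b and Scnn1g overlapped between tissues.

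Windows of 300 bases around the annotated start, 250 before it and 50 after, were held for 7 of the 10 genes in the RefSeq promoter table (build GRCm38.p6). Shown are those of the 3 genes with the largest fall in tumours that had a window, which also rose in Il1f9 KO colitis (Car4, chr11:84957504-84957803; Slc26a3, chr12:31437969-31438268; Aqp8, chr7:123462044-123462343), and of the neighbouring sodium channel genes whose values ran the other way there (Scnn1b, chr7:121864788-121865087; Scnn1g, chr7:121734229-121734528). All 5 are on the plus strand, 5′ to 3′, and capitals mark a motif match on either strand. The Slc26a3 window sits at the RefSeq start, which lies inside the deposited gene range.
Car4: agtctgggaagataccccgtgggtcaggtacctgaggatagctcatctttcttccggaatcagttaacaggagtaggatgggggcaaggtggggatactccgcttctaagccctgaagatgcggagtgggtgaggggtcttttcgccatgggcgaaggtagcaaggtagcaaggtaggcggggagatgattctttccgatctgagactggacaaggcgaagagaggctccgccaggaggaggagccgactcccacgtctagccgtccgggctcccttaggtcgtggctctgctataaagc
Slc26a3: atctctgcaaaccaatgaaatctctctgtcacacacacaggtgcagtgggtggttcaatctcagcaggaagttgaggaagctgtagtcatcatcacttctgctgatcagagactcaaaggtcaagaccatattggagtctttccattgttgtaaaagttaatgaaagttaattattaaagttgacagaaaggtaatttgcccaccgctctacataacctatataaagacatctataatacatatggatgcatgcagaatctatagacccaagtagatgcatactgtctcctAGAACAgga
Aqp8: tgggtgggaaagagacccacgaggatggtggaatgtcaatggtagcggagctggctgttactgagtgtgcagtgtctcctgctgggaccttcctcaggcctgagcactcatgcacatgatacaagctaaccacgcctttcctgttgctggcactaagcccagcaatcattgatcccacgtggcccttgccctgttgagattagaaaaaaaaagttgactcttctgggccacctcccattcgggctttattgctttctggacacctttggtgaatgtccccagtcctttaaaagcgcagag
Scnn1b: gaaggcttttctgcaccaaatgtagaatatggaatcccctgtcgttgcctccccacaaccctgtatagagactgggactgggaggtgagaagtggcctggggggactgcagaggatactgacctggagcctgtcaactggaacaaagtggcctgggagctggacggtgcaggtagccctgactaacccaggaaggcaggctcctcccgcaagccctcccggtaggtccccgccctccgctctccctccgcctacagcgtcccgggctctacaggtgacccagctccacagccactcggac
Scnn1g: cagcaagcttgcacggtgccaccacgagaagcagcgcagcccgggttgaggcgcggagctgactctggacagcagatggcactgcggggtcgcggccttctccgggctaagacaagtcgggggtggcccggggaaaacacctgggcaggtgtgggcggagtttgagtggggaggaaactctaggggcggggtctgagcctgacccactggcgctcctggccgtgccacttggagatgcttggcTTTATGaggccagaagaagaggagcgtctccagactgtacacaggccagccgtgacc
Searched on both strands were TTTATG, a core of CDX sites, CAAAGTCCA, a core of HNF4A sites, and TGTTCT, a corticosteroid receptor half-site, none of which overlap in these windows. TTTATG was found in the Scnn1g window, alone of the 7, and in 11.9% of all 32851 windows of the table. TGTTCT was found, on the minus strand, in the Slc26a3 window alone of the 7 and in 19.0% of all windows. CAAAGTCCA was found in none of the 7 and in 0.475% of all windows. The windows differed in base composition. Slc26a3 had 39.3% G and C with 1 CG dinucleotide and Aqp8 52.0% with 6. Car4 had 57.3% with 15, Scnn1b 61.7% with 10 and Scnn1g 64.7% with 18, against a median of 52.7% and 7 over all windows. Aqp4, Car1 and Scnn1a had no entry in the table. Scnn1g (chromosome 7, 121734479 to 121768475) and Scnn1b (chromosome 7, 121865038 to 121918514) lie on the same strand with 96.6 kb between them in the deposited coordinates.

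Values in CPM, counts scaled to library size, are used for comparisons of 1 gene between libraries. Tumours were set against colitis in each of the 4 genotype groups, and the mean of the 4 differences was tested with edgeR's quasi-likelihood test. Exchange, fatty acid uptake, carbonic anhydrase and water channel genes were lower in tumours, while mean log2 differences of the sodium channel subunits lay between -0.29 and 0.19. Single groups of the subunits ran from -0.935 (Scnn1b, Il1f9 WT) to 1.961 (Scnn1g, Il1f9 KO, with 5 and 13 counts in colitis). Differences are given on the log2 scale, followed by ± and the standard error. Of the 10 genes, 0 were higher, 8 lower and 2 not called at an adjusted p under 0.05 (Benjamini-Hochberg over all 19514 genes tested), where 72.6% of all genes were called. The median log2 difference of the 10 was -2.77, against -0.01 over all genes. In bulk tissue, fewer colonocytes and less RNA per colonocyte cannot be told apart, here or in the comparisons that follow.

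Car4 (ENSMUSG00000000805, chromosome 11, 84957786 to 84966044) had 14.2 to 44.3 CPM (median 26.3) in tumours, against 279 to 572 CPM (median 429) in colitis. It fell most of the 10, by 4.14 ± 0.23 on the log2 scale, which is 17.6-fold (adjusted p = 5.36e-09). The apical anion exchanger Slc26a3 (ENSMUSG00000001225, chromosome 12, 31390871 to 31473917) had 6.75 to 59.3 CPM (median 17.96) in tumours, against 169 to 388 CPM (median 282) in colitis (log2 difference -3.80 ± 0.26, adjusted p = 5.11e-08). Neither gene's tissues overlapped. For Car1 the range was 172 to 1461 CPM (median 413) in tumours, against 2419.5 to 9669 CPM (median 5245) in colitis (log2 difference -3.57 ± 0.29, adjusted p = 2.77e-07). Aqp8, a water channel of surface colonocytes (ENSMUSG00000030762, chromosome 7, 123462291 to 123468004), had 6.64 to 30.0 CPM (median 19.5) in tumours, against 118 to 446 CPM (median 187) in colitis (log2 difference -3.58 ± 0.28, adjusted p = 2.35e-07). Slc5a8 (ENSMUSG00000020062, chromosome 10, 88885992 to 88929515) had 9.20 to 35.3 CPM (median 22.5) in tumours, against 120.1 to 210.2 CPM (median 172) in colitis (log2 difference -2.94 ± 0.15, adjusted p = 4.46e-10). Car1, Aqp8 and Slc5a8 were also lower in each tumour library than in any colitis library. How many of all genes separated the tissues in this way was not counted.

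Aqp4, a water channel best known from astrocytes and also found on the basolateral side of epithelia (ENSMUSG00000024411, chromosome 18, 15389394 to 15403684), had 9.63 to 125 CPM (median 40.0) in tumours, against 102 to 481 CPM (median 257) in colitis (log2 difference -2.60 ± 0.21, adjusted p = 1.88e-07). Its tissues overlapped, because the highest tumour library, of Il1f5 WT, exceeded the colitis libraries labelled Il1f5 KO. Within groups the Aqp4 log2 difference was -3.01 in Il1f9 KO, -4.51 in Il1f9 WT, -0.76 in Il1f5 KO as labelled and -2.11 in Il1f5 WT, the widest spread among the 6 genes with a fall of more than 2 on the log2 scale. The sodium-hydrogen exchanger Slc9a3 (ENSMUSG00000036123, chromosome 13, 74121457 to 74169442) fell less, with 141 to 368 CPM (median 245) in tumours, against 248 to 519 CPM (median 417) in colitis (log2 difference -0.54 ± 0.14, adjusted p = 0.00278). It was lower in tumours in all 4 genotype groups, with log2 differences of -0.32 to -0.71, although single libraries overlapped.

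Scnn1a, the alpha subunit of the sodium channel (ENSMUSG00000030340, chromosome 6, 125320659 to 125344943), had 39.0 to 112 CPM (median 57.4) in tumours, against 35.2 to 72.4 CPM (median 59.5) in colitis, and was not called (log2 difference 0.19 ± 0.14, adjusted p = 0.239). The gamma subunit Scnn1g (ENSMUSG00000000216, chromosome 7, 121734479 to 121768475) had 1.45 to 4.09 CPM (median 2.46) in tumours, against 0.296 to 7.32 CPM (median 2.39) in colitis, and was not called either (log2 difference 0.18 ± 0.33, adjusted p = 0.642). The beta subunit Scnn1b (ENSMUSG00000030873, chromosome 7, 121865038 to 121918514) passed narrowly, with 5.83 to 13.0 CPM (median 7.23) in tumours, against 5.66 to 13.9 CPM (median 10.2) in colitis (log2 difference -0.29 ± 0.13, adjusted p = 0.0488). That call ended when any 1 of 13 libraries was left out (adjusted p up to 0.159). Scnn1b overlaps Cog7, a Golgi gene on the opposite strand with 345 to 844 counts per library, and since the kit does not mark strand, reads of the 2 genes in shared sequence cannot be told apart. In FPKM the alpha subunit was 2.94 to 11.7 times the beta subunit in tumours and 1.93 to 7.90 times in colitis.

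**Figure D2:**
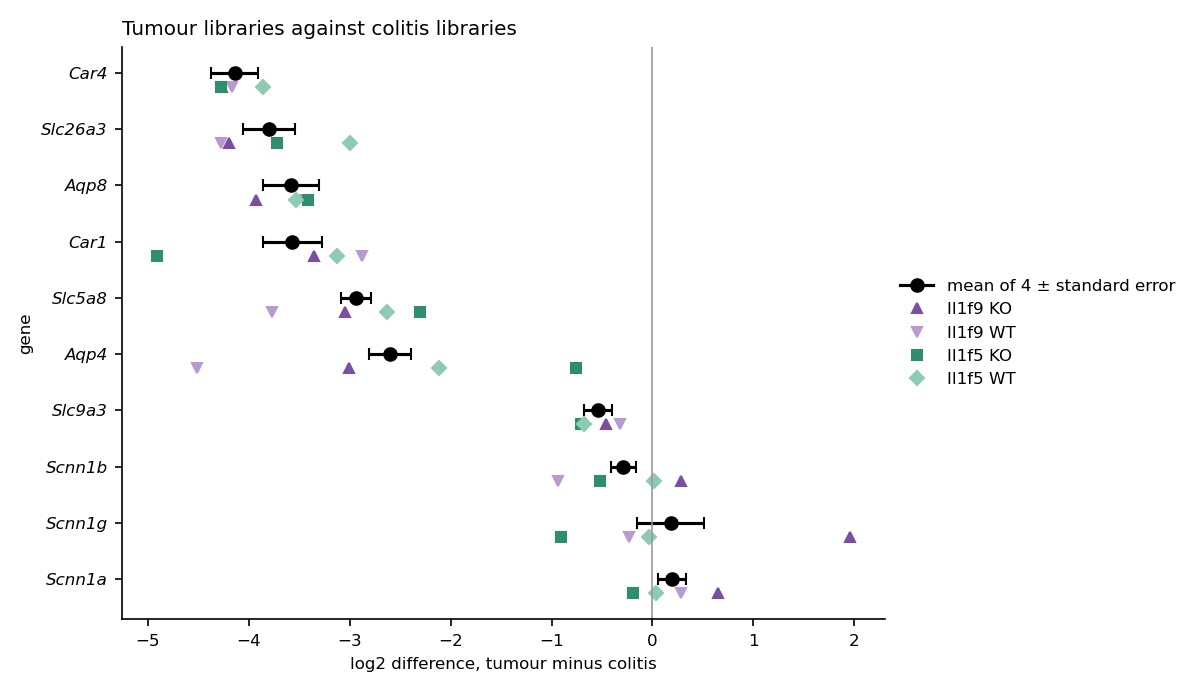
Log2 difference of tumour minus colitis for the 10 transport genes, sorted; black points are the mean of 4 group differences with its standard error, and small symbols are the 4 genotype groups as labelled. Car4, Slc26a3, Aqp8, Car1 and Slc5a8 lay below -2 in each group. Groups of the 3 sodium channel subunits scattered on both sides of 0, from -0.935 (Scnn1b, Il1f9 WT) to 1.961 (Scnn1g, Il1f9 KO).

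Other genes of the same pathways were compared between tumours and colitis as well. They were listed by pathway, and which cells of the bulk tissue carried them was not tested, here or below. In this comparison 72.6% of all genes were called, and the counts of each list stand beside that share. Of 11 further genes of sodium-hydrogen, anion and bicarbonate exchange and their scaffolds, 1 rose, 9 fell and 1 did not pass (median log2 difference -0.96). They included Slc4a2, a basolateral anion exchanger (-1.29 ± 0.06), Slc9a2, the exchanger NHE2 (-2.66 ± 0.11), and Slc4a4, a sodium bicarbonate cotransporter (-1.87 ± 0.09). Of 8 other carbonic anhydrases, 0 rose, 6 fell and 2 did not pass (median log2 difference -1.44), among them Car8 (-3.69 ± 0.10), which lacks enzyme activity, Car3 (-5.58 ± 0.30) and Car12 (-3.42 ± 0.30). Of 7 other monocarboxylate transport genes, 2 rose, 5 fell and 0 did not pass (median log2 difference -1.29), with Slc16a5 (-3.96 ± 0.14) and Slc16a9 (-4.51 ± 0.24) lower and Slc16a3, the lactate exporter MCT4, higher (2.62 ± 0.13). Of 6 other water channel genes, 3 rose, 3 fell and 0 did not pass (median log2 difference 0.20); Aqp11 (-2.13 ± 0.17) and Aqp1 (-1.59 ± 0.16) fell and Aqp9 rose (1.98 ± 0.20). Of 9 regulators of the sodium channel, 1 rose, 7 fell and 1 did not pass (median log2 difference -1.54): the deubiquitinase gene Usp2 (-3.06 ± 0.11), Nr3c2, the aldosterone receptor (-1.66 ± 0.07), and Nedd4l, a ubiquitin ligase that removes the channel from the membrane (-1.97 ± 0.09), were all lower.

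Of 8 chloride secretion genes, 4 rose, 3 fell and 1 did not pass (median log2 difference 0.12), where Ano1, a calcium-activated chloride channel (1.61 ± 0.10), and Kcne3, a potassium channel subunit (1.11 ± 0.08), were higher and the chloride channel Clcn2 was lower (-1.53 ± 0.10). Of 8 sodium pump and potassium handling genes, 3 rose, 4 fell and 1 did not pass (median log2 difference -0.20), with Kcnk5 (-2.05 ± 0.07) and Kcnma1 (-3.85 ± 0.17) lower and Fxyd3, a pump modulator, higher (2.56 ± 0.09). Of 3 guanylin signalling genes, 0 rose, 2 fell and 1 did not pass (median log2 difference -0.49); these were the receptor Gucy2c (-2.06 ± 0.16) and the ligand Guca2b (-0.49 ± 0.11). Of 8 colonocyte transcription factors, 1 rose, 7 fell and 0 did not pass (median log2 difference -1.56), with the vitamin D receptor Vdr (-2.88 ± 0.10) and Klf4 (-2.0 ± 0.09) lower. Of 7 inflammatory cytokines, 3 rose, 1 fell and 3 did not pass (median log2 difference -0.06), with Tnf (2.07 ± 0.18) and Il1b (1.99 ± 0.31) higher.

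Markers of cell types differed along the same split, where 72.6% of all genes were called. Markers of differentiated colonocytes were lower in tumours for 10 of 10, with summed levels of 6211 to 12279 CPM in tumour libraries and 10455 to 17219 CPM in colitis libraries. Likewise 7 of 8 goblet markers were lower. Of 8 crypt stem and cycling markers 7 were higher, led by Axin2 (3.71 ± 0.15), and of 10 pan-epithelial markers 5 were higher and 2 lower. Smooth muscle markers were lower for 8 of 8 (79.9 to 862 summed CPM in tumours and 1561 to 5009 in colitis). Fibroblast markers were lower for 5 of 6 and glial markers for 4 of 4, with Sox10 at 0 in the Il1f9 WT tumours. Markers of squamous epithelium were higher for 6 of 7 tested (89.5 to 808 summed CPM in tumours and 4.58 to 10.6 in colitis), where Sprr3 was at 0 in each colitis library. Hox genes of distal position were higher for 3 of 3, and of 8 leukocyte markers 4 were higher and 1 lower. The part of these markers in the transport genes' differences was not tested. Scaling to the pan-epithelial genes does not test it either, since those genes themselves differed between tissues. Scaling to the 10 pan-epithelial genes moved the median of all genes to -0.38 and kept the calls of all 8 genes, with Car4 at -4.50, Slc9a3 at -0.92 and Scnn1b at -0.66. It left Scnn1a at -0.19 and Scnn1g at -0.21 without a call.

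**Figure D3:**
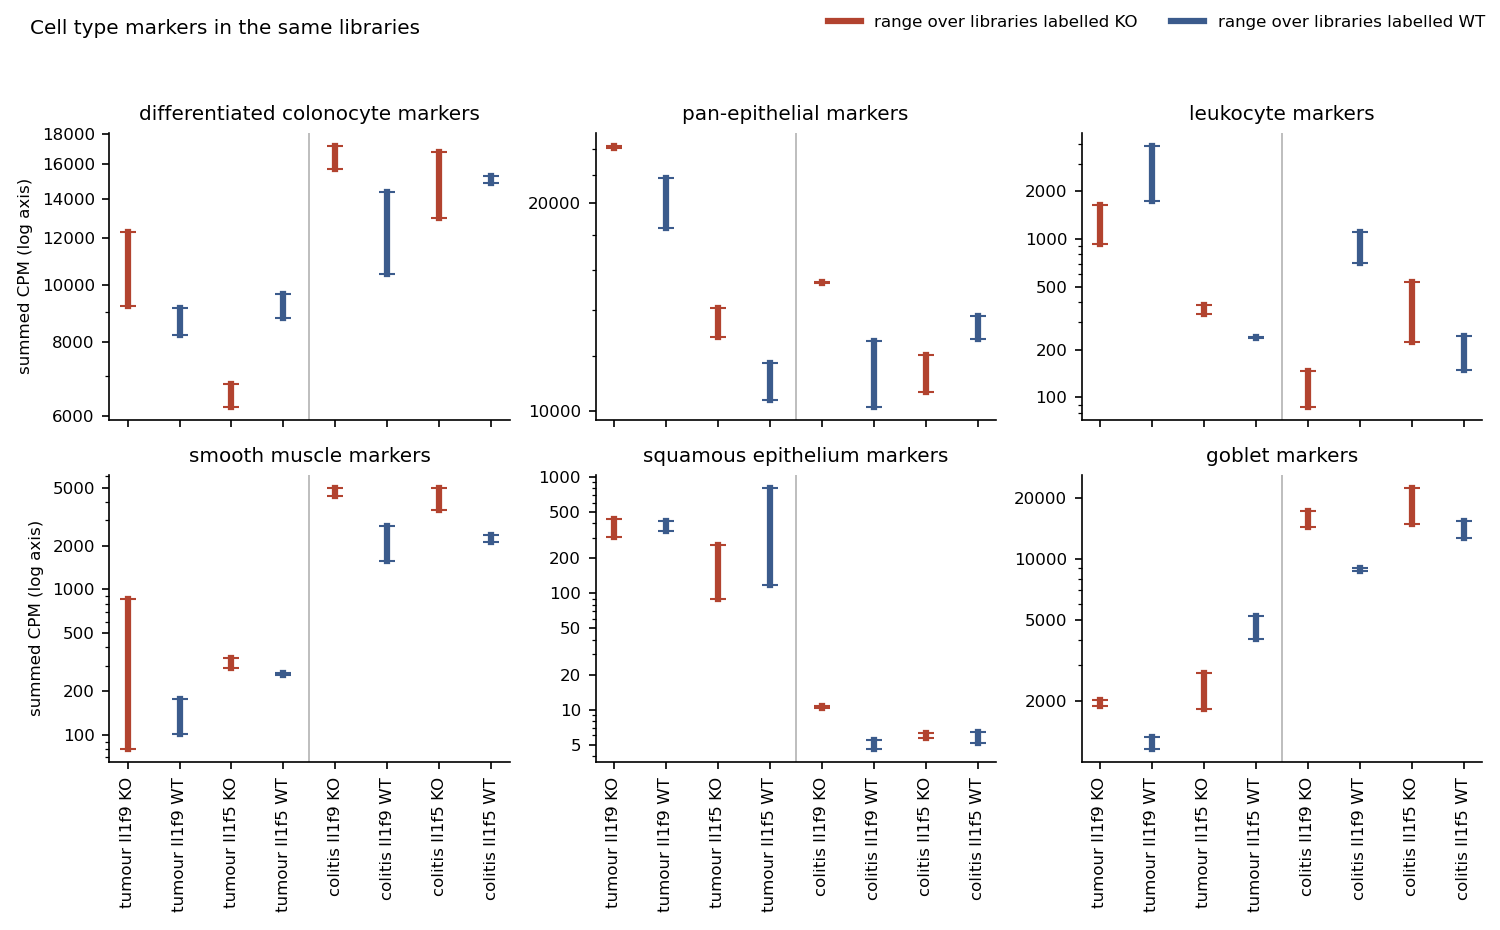
Summed CPM (log axis) of 6 lists of cell type markers, by group; bars run from the lowest to the highest library of a group, tumours left of the grey line and colitis right of it. Goblet and smooth muscle sums were lower and squamous sums higher in each tumour library than in any colitis library, differentiated colonocyte sums overlapped, and leukocyte markers were lowest in Il1f9 KO colitis.

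In colitis, Il1f9 KO libraries were compared with Il1f9 WT libraries to ask how transport genes stood when IL-36 gamma was missing. Aqp8, Car1, Slc26a3 and Car4 rose and Scnn1b fell, so 4 were higher, 1 lower and 5 not called, where 19.6% of all 18299 genes tested were called. The median over the 10 genes was 0.25, against -0.01 over all genes. Aqp8 showed the clearest difference: it had 446 and 441 CPM in Il1f9 KO colitis, against 135 and 118 CPM in Il1f9 WT colitis (log2 difference 1.81 ± 0.14, adjusted p = 8.54e-05). Both Il1f9 KO libraries were above every other library of the series. Car1 had 9669 and 9604 CPM in Il1f9 KO colitis, against 4758 and 2419.5 CPM in Il1f9 WT colitis (log2 difference 1.42 ± 0.31, adjusted p = 0.0102). Again both KO libraries were the highest of all 18, while the WT libraries lay far apart.

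For the chloride-bicarbonate exchanger Slc26a3 the values were 332 and 388 CPM in Il1f9 KO colitis, against 256 and 169 CPM in Il1f9 WT colitis (log2 difference 0.76 ± 0.18, adjusted p = 0.0127). Car4 had 563 and 572 CPM in Il1f9 KO colitis, against 440.1 and 279 CPM in Il1f9 WT colitis (log2 difference 0.66 ± 0.19, adjusted p = 0.0321). The groups did not overlap for either gene, a separation that was not counted over all genes. The sodium channel went the other way in its beta subunit: Scnn1b had 6.62 and 5.66 CPM in Il1f9 KO colitis, against 9.97 and 13.9 CPM in Il1f9 WT colitis (log2 difference -0.96 ± 0.19, adjusted p = 0.00663). Scnn1g had 5 and 13 counts in Il1f9 KO colitis, against 47 and 65 counts in Il1f9 WT colitis. These were the 2 lowest libraries of the series for the gamma subunit, but the difference was not called by edgeR (log2 difference -2.52 ± 0.90, adjusted p = 0.0825), whereas DESeq2's Wald test called it (adjusted p = 0.00532). Scnn1a had 42.1 and 70.2 CPM in Il1f9 KO colitis, against 35.2 and 41.9 CPM in Il1f9 WT colitis (log2 difference 0.54 ± 0.28, adjusted p = 0.206). In FPKM the alpha to beta ratio was 4.05 to 7.90 in Il1f9 KO colitis, against 1.93 to 2.25 in Il1f9 WT colitis. The alpha to gamma ratio was 78.7 to 103 in Il1f9 KO colitis, against 9.49 to 10.8 in WT. Aqp4, Slc5a8 and Slc9a3 overlapped between genotypes and were not called, with log2 differences of -0.04 ± 0.31, -0.11 ± 0.13 and -0.30 ± 0.20. The authors' deposited log2 fold changes here were 1.42 for Aqp8, 1.35 for Car1, 0.53 for Slc26a3, 0.58 for Car4 and -0.95 for Scnn1b. They were 0.37 for Scnn1a, -0.23 for Aqp4, -0.15 for Slc5a8 and -0.48 for Slc9a3. Scnn1g had -2.33, with an adjusted p of 8.06e-06 in the authors' test. The deposited libraries carry the letters A and C in Il1f9 WT and A and B in Il1f9 KO colitis. Whether the authors' test used these same libraries is not known here. The cause of the gap to edgeR, largest for Aqp8, was not tested.

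Leaving out 1 of the 4 libraries leaves 1 in its group, which is then assumed to vary like the other groups of the fit. Under that assumption the calls of Aqp8 and Car1 held each time, although the Car1 difference ran from 1.01 without WT 2 to 1.99 without WT 1. Without WT 2 the calls of Slc26a3 (adjusted p = 0.0810), Scnn1b (0.0634) and Car4 (0.212) ended. Without KO 2 the same 3 calls ended (adjusted p = 0.0919, 0.0596 and 0.131). Car4 was also lost without KO 1 (0.110). Leaving out WT 1 moved Slc26a3 to 1.09 and Car4 to 1.02. Where 19.6% of all genes were called, 4 of the 10 pan-epithelial markers were called higher. These 10 markers summed to 15350.0 to 15367 CPM in Il1f9 KO colitis, against 10126 to 12617 in Il1f9 WT colitis. Scaling to these genes put the median of all genes at -0.46. Under it Aqp8 (1.37, adjusted p = 7.75e-05), Car1 (1.03, 0.00617) and Scnn1b (-1.43, 0.00184) stayed called. Slc26a3 (0.34, 0.0601) and Car4 (0.24, 0.268) did not, while Scnn1g (-2.98, 0.0331) and Slc5a8 (-0.54, 0.00636) became called as lower. Differentiated colonocyte markers summed to 15720.0 to 17219 CPM in Il1f9 KO colitis, against 10455 to 14360.0 in Il1f9 WT colitis, with 2 of 10 higher, Guca2a (0.97 ± 0.20) and Cdhr5 (0.61 ± 0.14). Goblet markers summed to 14344 to 17245 CPM in Il1f9 KO colitis, against 8713 to 9034 in WT, with 3 of 8 higher. Leukocyte markers summed to 86.9 to 148 CPM in Il1f9 KO colitis, against 703 to 1104 in Il1f9 WT colitis, with 6 of 8 lower. Smooth muscle markers summed to 4418 to 4949.7 CPM in Il1f9 KO colitis, against 1561 to 2741 in WT, with 7 of 8 higher. Fibroblast markers summed to 1219 to 1691 CPM in Il1f9 KO colitis, against 2400.4 to 3431 in WT, with 5 of 6 lower. Squamous markers, of which Sprr3 was at 0, summed to 10.3 to 10.6 CPM in Il1f9 KO colitis, against 4.58 to 5.49 in WT, with 2 of 4 tested higher. Distal position genes summed to 29.3 to 82.5 CPM in Il1f9 KO colitis, against 15.9 to 16.2 in WT. None of them was called by edgeR (Hoxb13, 2.27 ± 0.77, adjusted p = 0.0846). The part of these lists in the transport genes' differences was not tested. Scaling to the pan-epithelial genes does not test it either, since 4 of those 10 were themselves called higher.

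Around the transport genes in Il1f9 KO colitis, the counts of each list stand beside the 19.6% of all genes called. Of 7 other monocarboxylate transport genes, 3 rose, 1 fell and 3 did not pass (median log2 difference 0.37). Slc16a1, the butyrate and lactate transporter MCT1 (0.82 ± 0.12), and Slc16a9 (1.90 ± 0.30) were higher and Slc16a3 lower (-1.53 ± 0.29). Of 8 other carbonic anhydrases, 2 rose, 1 fell and 5 did not pass (median log2 difference 0.13), with the cytosolic Car2 (0.80 ± 0.16) and Car13 (0.57 ± 0.18) higher and the membrane-bound Car12 lower (-0.41 ± 0.13). Of 10 further exchange and scaffold genes, 2 rose, 0 fell and 8 did not pass (median log2 difference -0.02), which were Slc9a2 (0.57 ± 0.13) and Slc9a3r1, a scaffold of apical transporters (0.66 ± 0.18). Of 9 sodium channel regulators, 2 rose, 0 fell and 7 did not pass (median log2 difference 0.13), which were Usp2 (0.76 ± 0.16) and Prss8, a channel-activating protease (0.45 ± 0.13). Of 8 chloride secretion genes, 1 rose, 1 fell and 6 did not pass (median log2 difference -0.07), with the potassium channel Kcnn4 higher (0.60 ± 0.17) and the chloride channel Cftr lower (-0.38 ± 0.12). Aqp11 was the 1 of 5 other water channels that rose (0.76 ± 0.19), and Kcnk5 the 1 of 8 sodium pump and potassium handling genes (0.75 ± 0.12). Of 8 colonocyte transcription factors Vdr (0.39 ± 0.11) and Klf4 (0.49 ± 0.15) rose, 0 of 3 guanylin signalling genes changed, and of 7 cytokines Tnf (-2.03 ± 0.26), Il17a (-6.49 ± 1.07) and Il1b (-3.11 ± 0.75) fell.

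The same comparison was made for colitis in the Il1f5 line, with 3 libraries labelled KO and 3 WT libraries. Aqp4, Slc5a8 and Slc26a3 fell: 0 genes were higher, 3 lower and 7 not called, where 24.7% of all 18299 genes tested were called. The median of the 10 was -0.14, against -0.01 over all genes. Aqp4 had 113, 102 and 103 CPM in colitis libraries labelled Il1f5 KO, against 445, 481 and 247 CPM in Il1f5 WT colitis (log2 difference -1.88 ± 0.26, adjusted p = 0.00308). The libraries labelled KO were close to each other and below every other colitis library. Slc5a8 had 133, 139 and 120.1 CPM in colitis libraries labelled Il1f5 KO, against 191, 193 and 175 CPM in Il1f5 WT colitis (log2 difference -0.51 ± 0.10, adjusted p = 0.00681). For Slc26a3 the values were 223, 184 and 233 CPM in colitis libraries labelled Il1f5 KO, against 312, 314 and 308 CPM in Il1f5 WT colitis (log2 difference -0.54 ± 0.14, adjusted p = 0.0199). The groups did not overlap for any of the 3 genes, a separation that was not counted over all genes.

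The other 7 genes overlapped between libraries labelled Il1f5 KO and WT, with log2 differences of 0.03 ± 0.25 for Car1, -0.15 ± 0.15 for Car4, -0.13 ± 0.12 for Aqp8, -0.01 ± 0.16 for Slc9a3, -0.16 ± 0.22 for Scnn1a, 0.05 ± 0.16 for Scnn1b and 0.33 ± 0.59 for Scnn1g. The gamma subunit was the least precise, at 7.32, 3.71 and 2.32 CPM in libraries labelled Il1f5 KO, against 2.41, 1.33 and 6.70 CPM in WT. The Slc26a3 call ended without WT 1 (adjusted p = 0.0625), WT 2 (0.0661), KO 1 (0.0520) or KO 2 (0.0759), while the Aqp4 and Slc5a8 calls held with each of the 6 libraries left out. Where 24.7% of all genes were called, 3 of 10 pan-epithelial markers were lower. These 10 markers summed to 10641 to 12071 CPM in libraries labelled Il1f5 KO, against 12710.0 to 13726 in WT. Scaled to them, with the median of all genes at 0.22, Aqp4 (-1.65, adjusted p = 0.00474) and Slc26a3 (-0.32, 0.0491) stayed called and Slc5a8 (-0.28, 0.0653) did not. Markers of astrocytes and enteric glia were higher for 3 of 4, at 29.1 to 48.4 summed CPM in libraries labelled Il1f5 KO, against 15.7 to 22.3 in WT. Smooth muscle markers (6 of 8 higher, 3519 to 5009 against 2126 to 2368 in WT) and fibroblast markers (5 of 6 higher, 2674 to 2866 against 1681 to 1862 in WT) moved with the labels as well. Distal position genes summed to 11.7 to 25.0 CPM in libraries labelled Il1f5 KO, against 29.8 to 82.8 in WT, with 1 of 3 lower (Hoxb13, -2.35 ± 0.63). Crypt stem and cycling markers summed to 231 to 493 CPM in libraries labelled Il1f5 KO, against 627 to 642 in WT, with 1 of 8 lower (Mki67, -0.97 ± 0.26). Differentiated colonocyte markers overlapped, at 12971 to 16821 summed CPM in libraries labelled Il1f5 KO, against 14882 to 15320 in WT. Among them Guca2a (0.733 ± 0.158) and Cdhr5 (0.395 ± 0.114) were called higher and Slc51b (-0.602 ± 0.162) lower. The part of these lists in the transport genes' differences was not tested. Scaling to the pan-epithelial genes does not test it either, since 3 of those 10 were themselves called lower.

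For the neighbouring pathway genes in colitis libraries labelled Il1f5 KO, the counts of each list stand beside the 24.7% of all genes called. Chloride secretion held 3 of 8 genes that fell, Kcne3 (-0.94 ± 0.15), Cftr (-0.46 ± 0.10) and Kcnn4 (-0.56 ± 0.14), and 1 that rose (list median -0.20). Of 7 cytokines 1 rose and 3 fell. Of 10 further exchange and scaffold genes, 3 rose, 0 fell and 7 did not pass (median log2 difference 0.11), which were Slc4a2 (0.41 ± 0.07), the scaffold gene Slc9a3r2 (0.33 ± 0.10) and Slc9a2 (0.32 ± 0.11). Of 8 colonocyte transcription factors, 0 rose, 4 fell and 4 did not pass (median log2 difference -0.27), with Klf5 (-0.39 ± 0.08) and Hnf4a (-0.31 ± 0.09) lower. Of 9 sodium channel regulators Nedd4l (0.66 ± 0.15) and the corticosteroid-induced Tsc22d3 (0.38 ± 0.11) rose. Of 8 other carbonic anhydrases, 1 rose, 2 fell and 5 did not pass (median log2 difference 0.09), with Car14 higher (1.93 ± 0.47) and Car2 (-0.45 ± 0.13) and Car13 (-0.46 ± 0.15) lower. Kcnma1 rose (0.62 ± 0.14) and Fxyd3 fell (-0.72 ± 0.13) among 8 sodium pump and potassium handling genes. Slc16a3 rose (0.88 ± 0.23) among 7 other monocarboxylate transport genes, Prkg2 (0.66 ± 0.19) among 3 guanylin signalling genes, and 0 of 5 other water channels changed.

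**Figure D4:**
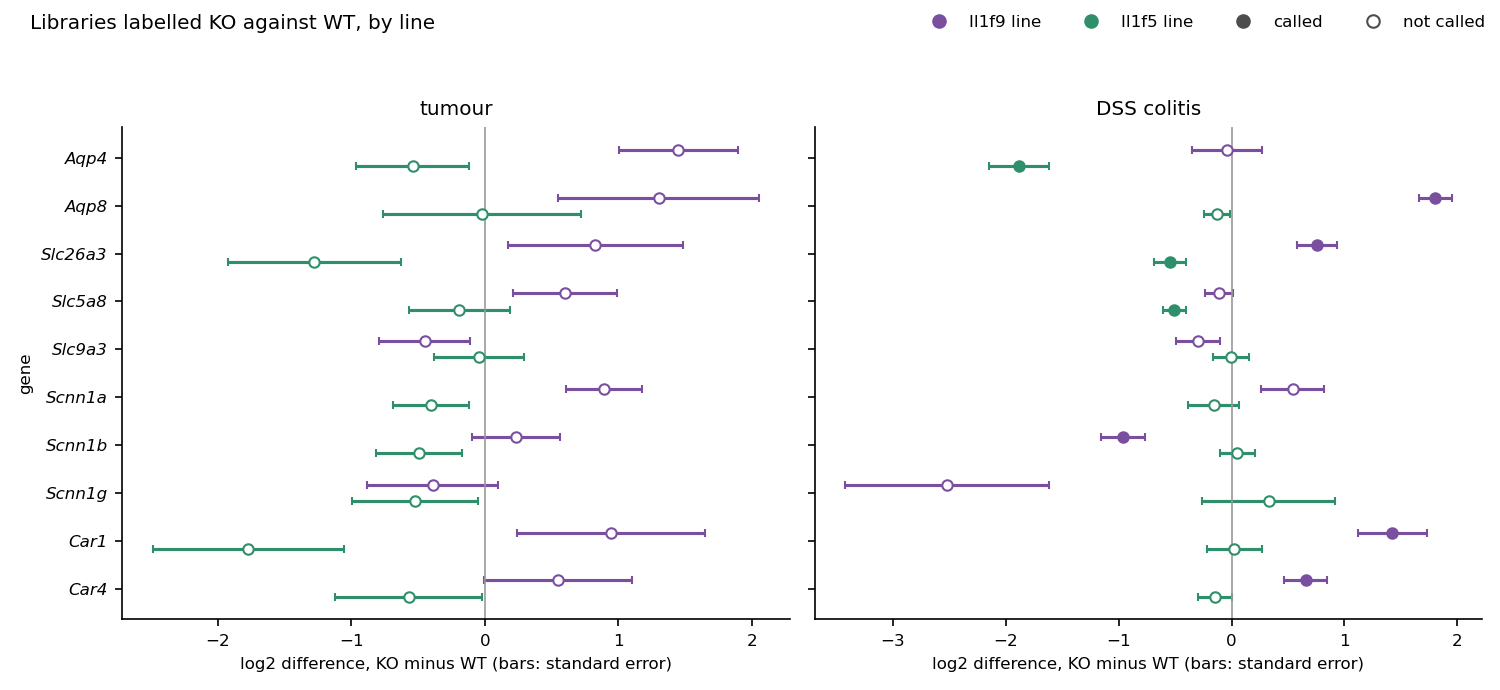
Log2 difference of libraries labelled KO minus WT for the 10 transport genes in tumours (left) and DSS colitis (right), by line; bars are standard errors, and filled points passed an adjusted p of 0.05. In colitis Aqp8, Car1, Slc26a3 and Car4 lay to the right and Scnn1b to the left in the Il1f9 line, Aqp4, Slc26a3 and Slc5a8 lay to the left in the Il1f5 line, and no point was filled in tumours.

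Whether the colitis effect of the Il1f9 KO differed from that of the Il1f5 KO as labelled was tested as a difference of differences. Of the 10 genes, 5 had a higher value in the Il1f9 line, 1 had a lower one and 4 were not called, where 24.8% of all genes were called, and the median was 0.75, against -0.03 over all genes. The difference was 1.94 ± 0.18 for Aqp8 (adjusted p = 0.000342), 1.85 ± 0.40 for Aqp4 (0.0138) and 1.40 ± 0.39 for Car1 (0.0263). It was 1.30 ± 0.23 for Slc26a3 (adjusted p = 0.00325), 0.81 ± 0.24 for Car4 (0.0343) and -1.01 ± 0.25 for Scnn1b (0.0143). Scaled to pan-epithelial genes, which put the median of all genes at -0.71, the Car4 difference was 0.16 (adjusted p = 0.552). Slc26a3 was the 1 gene of the 10 called in both lines, higher in Il1f9 KO and lower in libraries labelled Il1f5 KO, and its difference held with any 1 of the 10 libraries left out. These directions rest on the Il1f5 labels, which the Il1f5 counts go against. With the Il1f5 labels exchanged, an alternative chosen after seeing the data, the line difference was 0.21 ± 0.23, adjusted p = 0.540 for Slc26a3, 0.51 ± 0.24, adjusted p = 0.165 for Car4 and -1.92 ± 0.40, adjusted p = 0.0146 for Aqp4, so the first 2 calls ended and Aqp4 turned its sign. Aqp8 (1.67 ± 0.18, adjusted p = 0.000268), Car1 (1.45 ± 0.39, adjusted p = 0.0280) and Scnn1b (-0.91 ± 0.25, adjusted p = 0.0275) kept sign and call, and Slc5a8 became called (-0.62 ± 0.16, adjusted p = 0.0233). The WT libraries differed in Aqp8 as well, which had 135 and 118 CPM in Il1f9 WT colitis, against 199, 238 and 168 CPM in Il1f5 WT colitis (log2 difference -0.67 ± 0.13, adjusted p = 0.0185). Aqp8 was the 1 of 10 genes called between the WT groups of colitis, where 4.93% of all genes were called. With the Il1f5 labels exchanged, the Aqp8 difference was -0.54 ± 0.13, adjusted p = 0.0393, and Aqp4 (1.38 ± 0.28, adjusted p = 0.0292) and Slc5a8 (0.51 ± 0.11, adjusted p = 0.0275) were called as well. As labelled, the Aqp8 call ended without Il1f5 WT 1 (adjusted p = 0.0763), Il1f5 WT 2 (0.0697) or Il1f9 WT 2 (0.168), while 4 of the 10 genes were called without Il1f9 WT 1. Without Il1f9 WT 2, the library with 2419.5 CPM of Car1, the differences of Aqp4 (adjusted p = 0.0910), Car1 (0.0704), Scnn1b (0.0709) and Car4 (0.128) were no longer called. The Car4 difference also ended without any 1 of 7 other libraries. The Car1 difference ended without Il1f5 WT 2, the library labelled Il1f5 KO 1, Il1f9 KO 1 or Il1f9 KO 2, and the Scnn1b difference without Il1f9 KO 2.

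In tumours, 2 libraries stood against 2 in each line, and edgeR called none of the 10 genes in either. In the Il1f9 line edgeR called 0.0168% of all 17859 genes tested. An unadjusted p under 0.05 was found for 2 of the 10 and for 1553 of all 17859 genes. DESeq2's Wald test called 1 of the 10. Aqp4 had 33.6 and 33.3 CPM in Il1f9 KO tumours, against 9.63 and 14.6 CPM in Il1f9 WT tumours (log2 difference 1.45 ± 0.44, adjusted p = 0.462, unadjusted p = 0.0141). This was the gene DESeq2 called (adjusted p = 0.0132), and the authors' deposited table gives it a log2 fold change of 1.48 with an adjusted p of 0.00195. Scnn1a had 112 and 63.6 CPM in Il1f9 KO tumours, against 54.9 and 39.0 CPM in Il1f9 WT tumours (log2 difference 0.89 ± 0.28, adjusted p = 0.458, unadjusted p = 0.0129), and passed when KO 2 was left out (adjusted p = 0.0481). Aqp8 had 30.0 and 28.2 CPM in Il1f9 KO tumours, against 7.91 and 15.4 CPM in Il1f9 WT tumours (log2 difference 1.30 ± 0.75, adjusted p = 0.678). The Il1f9 KO libraries were above the WT libraries for Aqp4, Aqp8, Slc26a3, Scnn1a and Car4, none of which edgeR called. How many of all genes separated in this way was not counted, so this separation is no result about the transport genes. The median of the 10 was 0.71, against -0.02 over all genes. Car1 shows how far libraries of a group could stand apart, with 1461 and 421 CPM in Il1f9 KO tumours, against 406 and 569.9 CPM in Il1f9 WT tumours.

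In the Il1f5 line edgeR called 0.028% of all genes. An unadjusted p under 0.05 was found for 0 of the 10 transport genes and for 4106 of all 17859 genes. DESeq2 called 0 of the 10. The median was -0.51, against 0.01 over all genes. Car1 had 187 and 172 CPM in tumour libraries labelled Il1f5 KO, against 339 and 876 CPM in Il1f5 WT tumours (log2 difference -1.77 ± 0.72, adjusted p = 0.220, unadjusted p = 0.0516). The authors' deposited table gives Car1 a log2 fold change of -1.76 with an adjusted p of 0.0451. Slc26a3 had 11.8 and 20.6 CPM in tumour libraries labelled Il1f5 KO, against 18.8 and 59.3 CPM in Il1f5 WT tumours (log2 difference -1.28 ± 0.65, adjusted p = 0.30), where the groups overlapped. Besides Car1, Scnn1a was the other gene whose groups did not overlap. It had 49.3 and 50.2 CPM in tumour libraries labelled Il1f5 KO, against 59.9 and 70.9 CPM in Il1f5 WT tumours (log2 difference -0.41 ± 0.28, adjusted p = 0.421). Here too such separation was not counted over all genes, so it is no result about the transport genes. Differentiated colonocyte markers summed to 6211 to 6789 CPM in tumour libraries labelled Il1f5 KO, against 8809 to 9649 in Il1f5 WT tumours. They summed to 9204 to 12279 in Il1f9 KO tumours, against 8226 to 9135 in Il1f9 WT tumours. None of these markers was called in either line, and the 10 lists of pathway genes held no call either.

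The tumour effects of the lines were also compared with each other. edgeR called none of the 10 differences, where 0.0784% of all genes were called. An unadjusted p under 0.05 was found for 3 of the 10 and for 3076 of all 17859 genes. DESeq2 called 3 of the 10. The largest were 2.71 ± 1.0 for Car1, 2.11 ± 0.92 for Slc26a3 and 1.99 ± 0.61 for Aqp4 (adjusted p = 0.262, 0.311 and 0.199), and 1 difference was called without Il1f9 KO 2. Between the WT groups of tumours, 1 of the 10 was called, where 28.5% of all genes were. Aqp4 had 9.63 and 14.6 CPM in Il1f9 WT tumours, against 55.7 and 125 CPM in Il1f5 WT tumours (log2 difference -2.89 ± 0.46, adjusted p = 0.00595), and lost its call without Il1f9 WT 1 (adjusted p = 0.0531). With the Il1f5 labels exchanged it was -2.35 ± 0.45, adjusted p = 0.0113. As labelled, without Il1f5 WT 1 or 2 the Aqp4 difference was -3.35 or -2.17, and without Il1f5 WT 1 or Il1f9 WT 2 a total of 2 of the 10 genes were called. In the same comparison 6 of 8 goblet markers were lower, 5 of 8 leukocyte markers higher and 7 of 10 pan-epithelial markers higher in the Il1f9 line, and the median of the 10 transport genes was -0.57, against 0.02 over all genes.

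Whether a KO effect differed between tumour and colitis was tested within each line, and edgeR called none of the 10 genes in either. For the Il1f9 line edgeR called 2.47% of all genes. An unadjusted p under 0.05 was found for 2 of the 10 and for 3779 of all 19514 genes. DESeq2 called 2 of the 10. Scnn1b gave 1.21 ± 0.37 (unadjusted p = 0.00514, adjusted p = 0.0920) and Aqp4 1.5 ± 0.58 (adjusted p = 0.186). For the Il1f5 line edgeR called 18.1% of all genes. An unadjusted p under 0.05 was found for 2 of the 10 and for 6514 of all 19514 genes. DESeq2 called 2 of the 10. Aqp4 gave 1.35 ± 0.52 (adjusted p = 0.0920) and Car1 -1.78 ± 0.70 (adjusted p = 0.0997). The Aqp8 effect of the Il1f9 KO, 1.81 ± 0.14 in colitis and 1.30 ± 0.75 in tumours, differed by -0.49 ± 0.74 (adjusted p = 0.771). With this standard error a tumour effect equal to the colitis effect and a much smaller one cannot be told apart. Without 1 library, tumour Il1f9 KO 1 in the Il1f9 line and colitis WT 3 or tumour WT 2 in the Il1f5 line, 1 of the 10 genes was called.

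Some of the absorptive genes varied together across the libraries of a tissue and others did not. Among the 21 pairs of Aqp4, Aqp8, Slc26a3, Slc5a8, Slc9a3, Car1 and Car4, Pearson's r of log2 CPM ran from -0.30 to 0.91 with a median of 0.44 over the 8 tumour libraries, and 4 pairs were negative. The highest was 0.91 between Aqp4 and Slc5a8, and Aqp8 and Slc9a3 gave -0.30. Over the 10 colitis libraries r ran from -0.47 to 0.89 with a median of 0.16, with 6 pairs negative. It was 0.89 between Aqp4 and Slc5a8 and 0.87 between Aqp8 and Car1, but 0.01 between Aqp4 and Car1. Slc9a3 was negative with each of the other 6 genes in colitis. Removing group means leaves how libraries of a group differ from each other. Deviations gave 0.99 between Slc26a3 and Car4 and 0.99 between Aqp8 and Car4 in tumours, where each group has 2 libraries and so gives 2 mirrored points. In colitis the same pairs gave 0.46 and -0.03. Scnn1b ran against Aqp8 in colitis (-0.91), though less so among deviations (-0.23), and Aqp8 with Car1 gave 0.37 among deviations. These points share library, depth and cell make-up, and the values describe these libraries alone. Over all 18 libraries, where the tissue difference sets most of the variation, the 3 genes closest in log2 CPM among 13706 were Ugt2b5, Gm1123 and Ces2c for Car4 (highest r 0.99), Oxsm, Slc35a1 and Cgref1 for Slc26a3 (0.99) and Nr5a2, Tep1 and Rap1gap2 for Slc5a8 (0.99). They were Chmp4c, Ugp2 and Dyrk2 for Car1 (0.98), Zadh2, Fabp2 and Cryl1 for Aqp8 (0.98) and Agr2, Fam174b and C2cd4a for Aqp4 (0.96). The best match was lower for Slc9a3 (Bptf, Gpam and Ubr2, 0.91), Scnn1b (Gm43071, Rnf169 and Gm21811, 0.89), Scnn1g (AC160637.1, Il34 and Arap3, 0.85) and Scnn1a (Oxct1, Atp12a and Tgm3, 0.77).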

How the data were processed

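Poly(A) RNA was sequenced with paired reads of 150 bases on an Illumina HiSeq X platform from a kit that does not mark strand, per the labels' protocols. Trim Galore 0.6.4, HISAT2 2.0.5 and featureCounts 2.0.0 are named in the submitters' processing notes. No genome build is stated there (not given in the sources used here). Deposited tables hold the authors' read counts per gene and their FPKM, per the file headers, and the FPKM columns imply denominators of 0.899 to 1.08 times the count totals. The deposited log2 fold changes and p-values of the authors' own tests, per the file headers, are quoted where named. These are Aqp4 and Car1 in tumours and the transport genes in Il1f9 KO colitis. Of the 54532 gene identifiers, 54409 are in GENCODE M21, 53499 of them at identical coordinates, 9 of the 10 transport genes included.

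Counts of the 18 libraries were joined by gene identifier and tested with edgeR 4.0.16 in R 4.3.3 (TMM, filterByExpr, robust quasi-likelihood F-test). Colitis, tumour and all libraries were fitted apart, and an adjusted p under 0.05 (Benjamini-Hochberg over all genes tested) was a call. Library totals were 16621611 to 23776174 counts, and the spread between the few libraries of a group limited the precision. Replicates differed by a chi-square of 6.19 to 95.5 per gene, so none was a copy. Replicate numbers were not used as pairs in the main fits. The transport genes and all lists were chosen with earlier results of these data known. Named were the 10 genes, Il1f5 and Il1f9, for each list and comparison at most the 3 called genes with the smallest p and 1 not called, and the 3 genes most alike by Pearson's r of log2 CPM. Alternatives were DESeq2 1.42.0, its size factors, no filter, scaling to pan-epithelial genes, a replicate block, fits of 2 groups only, leaving out each library and, chosen after seeing the data, exchanging the Il1f5 labels in line comparisons. The values of 1 listed gene are not reported here. The procedure was tested on simulated data. Tables and figures used Python 3.11.15, numpy 2.4.6, pandas 2.3.3 and matplotlib 3.10.9.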

Additional observations from a re-analysis of the deposited data

Results flagged for a closer look

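As labelled, the effect of the KO label in colitis differed between the Il1f9 and the Il1f5 line for 6 of the 10 transport genes, tested as a difference of differences with edgeR (24.8% of all genes were called). The Il1f9 effect minus the Il1f5 effect was 1.94 on the log2 scale for Aqp8 (adjusted p = 0.000342), which was higher in both Il1f9 KO libraries. For Aqp4 it was 1.85 (adjusted p = 0.0138), with Aqp4 lower in all 3 libraries labelled Il1f5 KO. For Car1 it was 1.40 (adjusted p = 0.0263), for Slc26a3 1.30 (adjusted p = 0.00325), for Car4 0.805 (adjusted p = 0.0343) and for Scnn1b -1.01 (adjusted p = 0.0143). With the Il1f5 labels exchanged, an alternative chosen after seeing the data because the Il1f5 counts go against the labels, Aqp4 gave -1.92 ± 0.40, adjusted p = 0.0146, Slc26a3 0.21 ± 0.23, adjusted p = 0.540 and Car4 0.51 ± 0.24, adjusted p = 0.165, while Aqp8 (1.67 ± 0.18, adjusted p = 0.000268), Car1 (1.45 ± 0.39, adjusted p = 0.0280) and Scnn1b (-0.91 ± 0.25, adjusted p = 0.0275) kept sign and call. As labelled, Aqp8 and Slc26a3 kept the call with any 1 colitis library left out. Scaled to pan-epithelial genes, which put the median of all genes at -0.71, Car4 gave 0.16 (adjusted p = 0.552).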

How the results depend on the processing

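Calls in tumours rest on 2 libraries against 2, and Scnn1g on few counts. Same-numbered libraries did not deviate together (r from -0.127 to -0.002). In groups of 2 libraries the deviations mirror each other, so both numbers give the same r. In Il1f9 colitis, number 2 stands for source letter C in WT and B in KO. Whether libraries share a batch or litter cannot be told from this. With a replicate block, Car4 was not called in Il1f9 KO colitis (adjusted p = 0.0627), nor Scnn1b between tissues (0.0909). Genes called over all as reported numbered 4516 for Il1f5 KO colitis as labelled, 3581 for Il1f9 KO colitis, 902 for the WT lines in colitis, 4535 for the line difference in colitis, 5 for Il1f5 KO tumours as labelled, 3 for Il1f9 KO tumours, 5096 for the WT lines in tumours, 14 for the line difference in tumours, 3524 for the tissue difference of the Il1f5 KO effect, 482 for the tissue difference of the Il1f9 KO effect. Scaled to pan-epithelial genes, the log2 difference changed sign to 0.101 for Aqp8 in Il1f5 KO colitis as labelled, 0.225 for Slc9a3 in Il1f5 KO colitis as labelled, 0.0817 for Scnn1a in Il1f5 KO colitis as labelled, 0.0826 for Car4 in Il1f5 KO colitis as labelled, -0.0270 for Scnn1b in Il1f9 KO tumours, -0.194 for Scnn1a in tumour over colitis, -0.211 for Scnn1g in tumour over colitis. With 2 groups only, calls over all genes numbered 1026 for Il1f5 KO tumours as labelled, 0 for Il1f9 KO tumours; the log2 difference changed sign to 0.00400 for Slc9a3 in Il1f5 KO colitis as labelled. With a replicate block, transport genes called numbered 3 for the WT lines in tumours; calls over all genes numbered 303 for the WT lines in colitis, 9 for Il1f5 KO tumours as labelled, 4 for the line difference in tumours, 232 for the tissue difference of the Il1f9 KO effect; the log2 difference changed sign to -0.0213 for Car1 in Il1f5 KO colitis as labelled, 0.110 for Aqp8 in Il1f5 KO tumours as labelled. With DESeq2's Wald test, transport genes called numbered 4 for the WT lines in colitis, 1 for Il1f9 KO tumours, 3 for the WT lines in tumours, 3 for the line difference in tumours, 2 for the tissue difference of the Il1f5 KO effect, 2 for the tissue difference of the Il1f9 KO effect; calls over all genes numbered 2065 for the WT lines in colitis, 1230 for Il1f5 KO tumours as labelled, 158 for Il1f9 KO tumours, 557 for the line difference in tumours, 1308 for the tissue difference of the Il1f9 KO effect. With no filter, transport genes called numbered 2 for the WT lines in colitis, 2 for Il1f5 KO tumours as labelled, 5 for Il1f9 KO tumours, 3 for the WT lines in tumours, 6 for the line difference in tumours, 3 for the tissue difference of the Il1f5 KO effect, 3 for the tissue difference of the Il1f9 KO effect; calls over all genes numbered 1712 for the WT lines in colitis, 1943 for Il1f5 KO tumours as labelled, 791 for Il1f9 KO tumours, 1362 for the line difference in tumours, 1823 for the tissue difference of the Il1f9 KO effect; the log2 difference changed sign to 0.00780 for Aqp8 in Il1f5 KO tumours as labelled. With the Il1f5 labels exchanged, chosen after seeing the data, transport genes called numbered 3 for the WT lines in colitis; calls over all genes numbered 6 for the line difference in tumours; the log2 difference changed sign to -1.92 for Aqp4 in the line difference in colitis. With DESeq2 size factors, calls over all genes numbered 25 for the line difference in tumours. With each library left out in turn, transport genes called ranged over 2 to 6 for Il1f9 KO colitis, 0 to 4 for the WT lines in colitis, 2 to 8 for the line difference in colitis, 0 to 1 for Il1f9 KO tumours, 0 to 2 for the WT lines in tumours, 0 to 1 for the line difference in tumours, 0 to 1 for the tissue difference of the Il1f5 KO effect, 0 to 1 for the tissue difference of the Il1f9 KO effect. With each library left out in turn, genes called over all ranged over 1964 to 5586 for Il1f5 KO colitis as labelled, 1393 to 3396 for Il1f9 KO colitis, 118 to 1126 for the WT lines in colitis, 1961 to 5844 for the line difference in colitis, 2 to 7 for Il1f5 KO tumours as labelled, 4 to 97 for Il1f9 KO tumours, 1670 to 2891 for the WT lines in tumours, 2 to 319 for the line difference in tumours, 561 to 3969 for the tissue difference of the Il1f5 KO effect, 49 to 1107 for the tissue difference of the Il1f9 KO effect. In Il1f5 KO colitis as labelled the sign turned within -0.249 to 0.000500 for Aqp8, -0.0795 to 0.111 for Slc9a3, -0.258 to 0.0460 for Scnn1a, -0.226 to 1.24 for Scnn1g, -0.187 to 0.189 for Car1. In Il1f9 KO colitis the sign turned within -0.449 to 0.278 for Aqp4, -0.292 to 0.0888 for Slc5a8, -0.598 to 0.0749 for Slc9a3. In Il1f5 KO tumours as labelled the sign turned within -1.0 to 0.177 for Aqp4, -0.712 to 1.39 for Aqp8, -0.588 to 0.0917 for Slc5a8, -0.500 to 0.270 for Slc9a3, -1.11 to 0.348 for Car4. In Il1f9 KO tumours the sign turned within -0.0145 to 0.439 for Scnn1b, -0.836 to 0.229 for Scnn1g, -0.262 to 1.59 for Car1. The causes were not tested. The transport genes called in a comparison kept their sign there in each alternative run, except Aqp4 in the line difference in colitis with the Il1f5 labels exchanged.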

Other observations

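With the libraries as labelled, Clca1, a secreted protein of goblet cells, was higher in both lines of colitis, at 2.20 ± 0.34 in Il1f9 KO colitis and 1.67 ± 0.27 in colitis libraries labelled Il1f5 KO (edgeR, adjusted p = 0.00264 and 0.00394). Zg16, a lectin of the mucus layer, was higher as well, by 1.04 ± 0.17 in Il1f9 KO colitis and 0.49 ± 0.13 in libraries labelled Il1f5 KO, while Spink4 was called in Il1f9 KO colitis (1.21 ± 0.14) and not in libraries labelled Il1f5 KO (0.24 ± 0.11); the difference between lines was 0.97 ± 0.18 (adjusted p = 0.00421). Of 8 goblet markers, 3 were higher and none lower in Il1f9 KO colitis, where 19.6% of all genes were called. In colitis libraries labelled Il1f5 KO, where 24.7% of all genes were called, 4 goblet markers were higher and 1 lower. With the Il1f5 labels exchanged, each value of the Il1f5 line would have the opposite sign, and Clca1 and Zg16 would differ in direction between lines.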
